A study of Mus musculus with 16 samples.

Results

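The 8 genes described here encode the core of the DNA damage checkpoint and of break repair: Parp1, Atr, Atm, Chek1, Chek2, Wee1, Brca1 and Brca2. They were taken by symbol from the 24016 named entries of an expression table of 16 mouse small cell lung tumors, and all 8 were present once and passed the filter on low values. Of the tumors, 8 were labelled sgControl RPP and 8 sgKdm5a RPP. All mice carried a Cre-inducible Cas9 transgene at the H11 locus (H11-LSL-Cas9 strain) and received adenovirus through the trachea at 2 to 4 months of age. The virus held Cre under the CMV promoter, which is active in many cell types, and the RPP guides, which target Rb1, Trp53 and Rbl2 as the model is known, the labels not naming them. So the control tumors share those edits, and the sgKdm5a virus adds a guide against Kdm5a, a histone H3 lysine 4 demethylase. The comparison asks whether RNA of checkpoint and repair genes differs with the Kdm5a guide. Each tumor came from its own numbered mouse, per the table's header, and bulk tumor RNA was measured, so fewer tumor cells and less RNA per cell cannot be told apart. Mice numbered 190 to 238 gave 7 sgControl-labelled and 4 sgKdm5a-labelled tumors, and those numbered 839 to 893 gave 1 and 4. Label and number series are thus partly confounded.

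ATM is a kinase activated at double-strand breaks and ATR one activated at single-stranded DNA of stalled forks. They act mainly through the kinases CHK2 and CHK1, and WEE1 holds the cell cycle by inhibitory phosphorylation of cyclin-dependent kinases. PARP1 senses strand breaks, while BRCA1 and BRCA2 carry homologous recombination by preparing ends and loading the recombinase. Small cell lung cancer typically lacks RB and p53, and drugs against PARP, ATR, CHK1 and WEE1 are studied in it.

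The sequences before the start sites are given first, as a description. RefSeq promoter sequence (build GRCm38.p6) matched 7 of the 8 members, all but Wee1, and the 250 bases before the start were searched on both strands. The letters searched were those of an E2F site (TTTGGCGC, TTTCGCGC or TTTCCCGC), the cell cycle homology region (TTTGAA), the CCAAT box (CCAAT) and the GC box (GGGCGG). Chek2 and Brca2 held E2F letters, on the minus strand of the sequence as printed (GCGGGAAA), which any of the E2F forms did in 1.53% of 32851 windows of this length. In Chek2 they began 152 bases before the start (chr5:110839820-110839849, plus strand), and in Brca2 168 bases before it (chr5:150522442-150522471, plus strand). They are shown with their flanks, the E2F letters in capitals.
Chek2: cgggattagccGCGGGAAAccaagacgtcg
Brca2: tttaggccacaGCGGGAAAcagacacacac
Chek2 also held CCAAT letters in reverse (ATTGG) 186 and 26 bases before the start (chr5:110839785-110839814 and chr5:110839945-110839974, plus strand), shown in capitals.
Chek2 distal: gtctcgctgctgATTGGttaagggagtcga
Chek2 proximal: gaaggctttttgATTGGttgagggtggagt
CCAAT letters stood in 33.8% of all windows, and also 165 bases before the Atm start and 86 bases before that of Brca1. GC box letters, in 32.7% of all windows, stood once in Atm, in Atr at 72 and 48 bases and in Parp1 at 124, 35 and 15 bases before the start. Atm is shown around its CCAAT letters (chr9:53536819-53536848, minus strand). Atr (chr9:95857347-95857596, plus strand) and Parp1 (chr1:180568641-180568890, plus strand) are shown whole, with the GC box letters in capitals.
Atm: agggcaatcgccATTGGtgcgcactgcgca
Atr: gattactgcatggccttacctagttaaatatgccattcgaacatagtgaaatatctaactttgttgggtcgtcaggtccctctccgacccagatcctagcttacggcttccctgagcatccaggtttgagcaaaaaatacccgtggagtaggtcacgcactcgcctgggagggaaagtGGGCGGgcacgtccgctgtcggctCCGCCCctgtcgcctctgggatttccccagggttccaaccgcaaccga
Parp1: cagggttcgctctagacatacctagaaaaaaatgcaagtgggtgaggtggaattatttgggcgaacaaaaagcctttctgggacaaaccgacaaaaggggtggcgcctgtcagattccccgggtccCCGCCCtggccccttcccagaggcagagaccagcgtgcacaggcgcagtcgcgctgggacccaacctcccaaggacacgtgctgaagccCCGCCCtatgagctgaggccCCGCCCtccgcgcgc
The homology region letters, in 15.99% of all windows, were in none of the 7 windows, and Chek1 held none of the letters searched. The windows of Chek2, Brca2 and Atm overlap annotated transcripts of the same or a neighbouring gene. The gene Hscb lies 6 bases from Chek2, the gene Npat 60 bases from Atm and the gene Nbr1 151 bases from Brca1. The letters in those windows and in that of Brca1 therefore cannot be assigned to the member alone. A match is a description of letters and not of binding.

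The table's values are FPKM, that is, fragments per unit of transcript length, normalised to the size of the library. The tumors carried RNA of neuroendocrine genes that define this cancer, with Insm1 at 21.6 to 201 FPKM and Syp at 3.02 to 144 FPKM over all 16. The library of sgControl tumor 1 stood apart: its tested genes had a median of 2.38 FPKM, while the other 15 libraries had medians of 10.0 to 12.3 FPKM. A single small RNA gene, Mir6236, took 904068 FPKM there, against 27123 to 84160 FPKM in the other 15 libraries. Over all tested genes the label difference had a median of 0.21 on the log2 scale as deposited, 0.002 with libraries scaled to one common median and -0.01 without that tumor, so member results are given on both scales. Kdm5a RNA ran against the labels, at 8.16 to 17.3 FPKM in the sgKdm5a-labelled and 3.28 to 8.06 FPKM in the sgControl-labelled tumors. As deposited the difference had a limma adjusted p of 0.852. After scaling the labels overlapped, at 8.57 to 20.3 against 5.67 to 16.3 scaled FPKM in the same order. The 16.3 was that of sgControl tumor 1. The groups are therefore named by label only, and every direction below rests on the labels.

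Parp1 RNA was the most abundant of the members, with a median of 41.3 FPKM over 16 tumors. Wee1 followed at 14.4 FPKM, Chek1 at 12.7, Brca1 at 11.2, Chek2 at 8.73, Atr at 6.73, Atm at 6.21 and Brca2 at 3.81 FPKM. FPKM is a value per transcript length, so levels of different genes can be set side by side. The top and bottom of this order were stable from tumor to tumor, while the middle was not. Parp1 was above Wee1 in 16 of 16 tumors, Brca1 above Chek2 in 14 and Atm above Brca2 in 15. Wee1 was above Chek1 in 12 tumors, Chek1 above Brca1 in 10, Chek2 above Atr in 11 and Atr above Atm in 11. For these 4 neighbours the mean log2 ratio, 0.13 to 0.36, was smaller than its SD over tumors, 0.32 to 0.67, and so was that of Brca1 to Chek2 (0.34, SD 0.39).

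**Figure D1:**
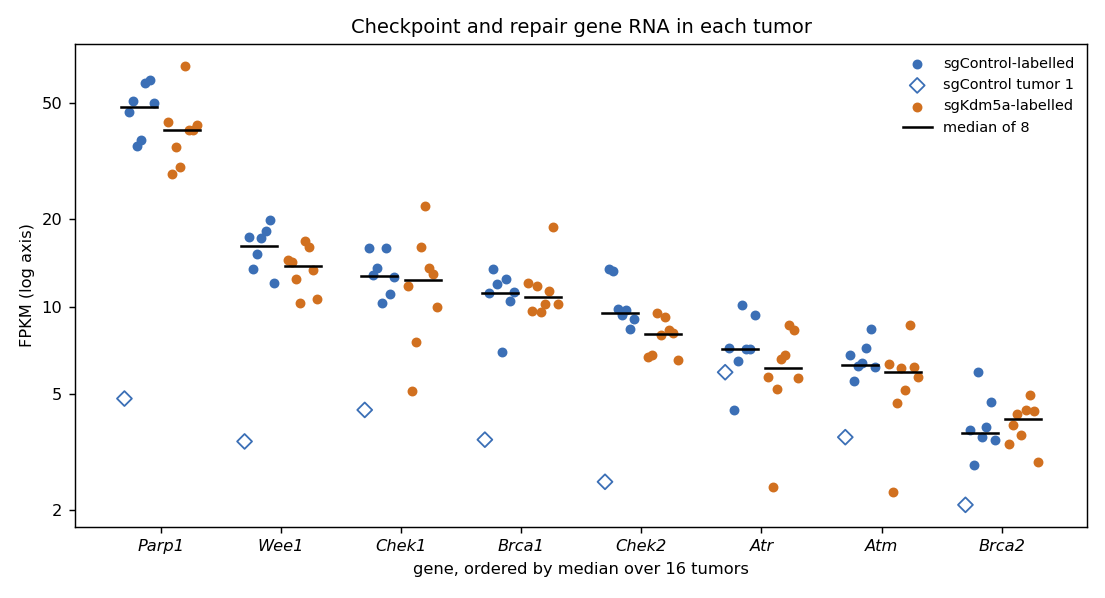
FPKM (log axis) of the 8 genes in each tumor, with genes ordered by their median over 16 tumors. Blue points are sgControl-labelled and orange points sgKdm5a-labelled tumors, the open diamond is sgControl tumor 1 and bars are medians of 8. Parp1 lies above the rest in 15 tumors, the labels overlap for every gene, and sgControl tumor 1 is the lowest tumor for Parp1, Wee1, Chek1, Brca1, Chek2 and Brca2 but not for Atr and Atm.

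In sgControl tumor 1 the members were not all low to the same degree. Atr stood at 2.4997 times the library's median of tested genes, against 0.239 to 0.845 times in the other 15 tumors. Atm stood at 1.496 times that median, against 0.231 to 0.711 times elsewhere. Brca2 stood at 0.876 times, against 0.247 to 0.504 times. All 3 were above every other tumor on this relative scale. Parp1 went the other way, at 2.03 times the median against 2.59 to 5.98 times. Atr, at 5.95 FPKM, was the highest of the 8 members in that tumor, whereas Parp1 was the highest in the other 15.

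None of the 8 genes passed the test between labels. Adjusted p-values ran from 0.860 to 0.9997 (limma on log2(FPKM + 1), Benjamini-Hochberg over all 13123 tested genes, threshold 0.05), and 0.00762% of all tested genes passed. At an unadjusted p under 0.05 the count was 0 of 8 members, against 4.42% of all tested genes. After scaling it was 1 of 8, Chek2, against 9.94% of all tested genes. The same test called 1 gene in all as deposited and 0 after scaling.

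Among the apical kinases, Atr was 4.42, 7.15 and 10.1 FPKM (lowest, median and highest of 8) in the sgControl-labelled tumors and 2.39, 6.17 and 8.64 FPKM in the sgKdm5a-labelled ones. Its log2 difference was -0.22 with a 95% interval of -0.73 to 0.28 as deposited, and -0.48 with an interval of -1.06 to 0.10 after scaling. Without sgControl tumor 1 the scaled difference was -0.24. Atm was 3.56, 6.30 and 8.37 FPKM against 2.31, 5.93 and 8.61 FPKM in the same order. Its difference was -0.16 (interval -0.66 to 0.34) as deposited and -0.40 (interval -0.85 to 0.05) after scaling, and -0.24 without sgControl tumor 1 on the scaled values. The groups overlapped for both kinases. The lowest tumor for Atr and for Atm alike was sgKdm5a tumor 2.

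Of the kinases they activate, Chek2 was 2.499, 9.52 and 13.5 FPKM in the sgControl-labelled and 6.57, 8.04 and 9.497 FPKM in the sgKdm5a-labelled tumors. All 8 sgKdm5a-labelled tumors lay below the sgControl-labelled median, although the groups overlapped. The mean was 9.43 ± 3.38 against 7.89 ± 1.12 FPKM (SD, n = 8 each), and without sgControl tumor 1 the first was 10.4 ± 2.04 FPKM (SD, n = 7). As deposited the labels differed by -0.14 (log2) with a standard error of 0.26 (limma adjusted p = 0.907). After scaling it was -0.37 with a standard error of 0.15 and an interval of -0.67 to -0.06 (unadjusted p = 0.0212, adjusted p = 0.441, limma), and 6 of 8 sgKdm5a-labelled tumors lay below the sgControl-labelled median. Leaving out sgControl tumor 1 gave -0.35 on the deposited values (adjusted p = 0.489, limma). Chek1 was 4.41, 12.7 and 15.9 FPKM against 5.13, 12.4 and 22.1 FPKM, with the highest tumor, sgKdm5a tumor 5, also the highest for Parp1. Its log2 difference was 0.0034 as deposited and -0.24 after scaling, with intervals of -0.60 to 0.61 and -0.70 to 0.22.

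Wee1 was 3.44, 16.2 and 19.9 FPKM in the sgControl-labelled and 10.3, 13.8 and 16.8 FPKM in the sgKdm5a-labelled tumors. In 7 of 8 sgKdm5a-labelled tumors it lay below the sgControl-labelled median. The difference was -0.00037 as deposited and -0.23 (interval -0.53 to 0.06) after scaling. Parp1 was 4.83, 48.4 and 60.2 FPKM against 28.5, 40.4 and 67.1 FPKM, and here too 7 of 8 sgKdm5a-labelled tumors lay below the other median. Its difference was 0.12 (interval -0.68 to 0.92) as deposited and -0.12 (interval -0.53 to 0.29) after scaling, so its sign depended on the scaling. Intervals after scaling were narrower than as deposited for Parp1 and Wee1, and for every other member but Atr. As deposited, sgControl tumor 1 was the lowest tumor for Parp1 and Wee1 but not for Atm.

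The recombination genes had medians that were close between labels. Brca1 was 3.49, 11.2 and 13.5 FPKM in the sgControl-labelled and 9.58, 10.8 and 18.8 FPKM in the sgKdm5a-labelled tumors. One tumor, sgKdm5a tumor 7, held 18.8 FPKM, and the other 7 of its group lay between 9.58 and 12.0 FPKM. The log2 difference was 0.24 as deposited and 0.0034 after scaling, with intervals of -0.30 to 0.78 and -0.34 to 0.35. Brca2 was 2.08, 3.67 and 5.97 FPKM against 2.92, 4.10 and 4.95 FPKM. Its difference was 0.08 (interval -0.37 to 0.53) as deposited and -0.13 (interval -0.55 to 0.29) after scaling. For both genes, as for the other 6, the interval as deposited reached to both sides of zero, so equal levels are not shown.

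**Figure D2:**
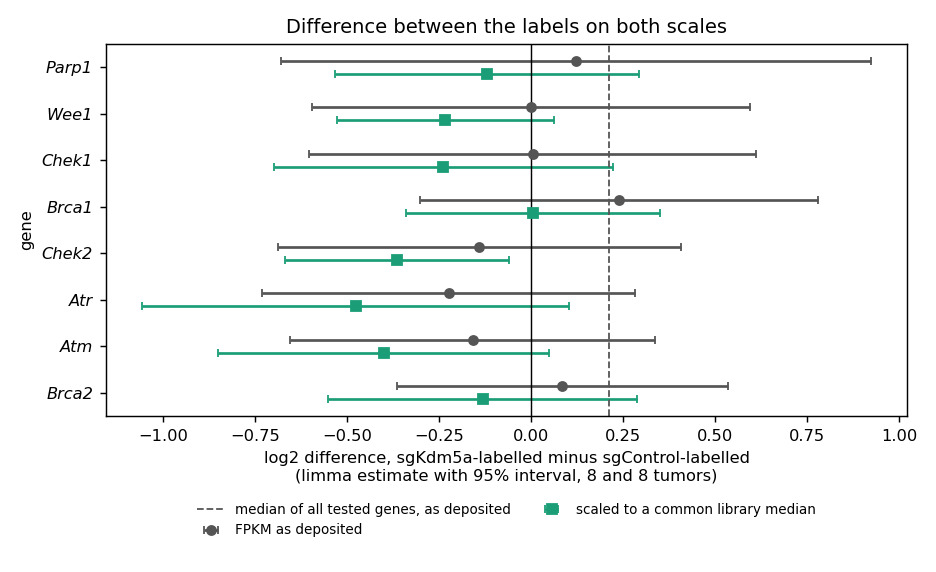
Log2 difference, sgKdm5a-labelled minus sgControl-labelled, for each gene with its 95% limma interval (8 and 8 tumors), as deposited (circles) and with libraries scaled to a common median (squares). The dashed line is the median difference of all tested genes as deposited, 0.21. Only the scaled interval of Chek2, -0.67 to -0.06, leaves out zero, before adjustment over genes.

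Proliferation genes stood lower than most genes in the sgKdm5a-labelled tumors, though none passed the test. Of a list of 20 mitosis genes 19 had a label difference below the all-gene median, and the list median was 0.35 below it on the log2 scale. Marker lists of other cell types stood on the other side, and so did the list of neuroendocrine genes, which define this cancer. Above the all-gene median were 10 of 11 tested macrophage genes, 3 of 3 T and NK cell genes, 11 of 12 endothelial, 9 of 11 fibroblast, 9 of 10 alveolar type 2 and 11 of 14 neuroendocrine genes. Their list medians lay 0.27, 0.14, 0.37, 0.65, 0.62 and 0.25 above it, and without sgControl tumor 1 0.23, 0.13, 0.41, 0.74, 0.54 and 0.12 above it. Mki67, a marker of cycling cells, was 98.1 ± 27.1 against 66.1 ± 15.4 FPKM (SD, n = 8 each), with a limma adjusted p of 0.852. The E2F gene E2f1 was 40.2 ± 21.4 against 39.6 ± 8.09 FPKM. The part of proliferation and of other cell types in the member and pathway differences was not tested.

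Across tumors, Chek2 was the 1 member whose level went significantly with that of the mitosis genes. Its scaled log2 level and the mean of the mitosis list had a Pearson r of 0.77 and a Spearman rho of 0.74 over 16 tumors (permutation, adjusted over 16 relations p = 0.00992 and 0.0224). No other of the 16 relations passed, and differences in r between members were not tested. Without the 2 tumors farthest from the median Chek2 level r was 0.80, and without sgControl tumor 1 it was 0.73 (permutation, adjusted p = 0.0280). Among the 11 mice numbered 190 to 238 it was 0.82 (permutation, adjusted p = 0.0291). The series of mice numbered 839 to 893 held 5 tumors, too few for a value. The labels differ in both measures, and with each label's mean removed r was 0.69 (permutation, adjusted p = 0.0578). For the other 7 members r with the mitosis list ran from 0.15 for Parp1 to 0.54 for Chek1. Against a list of 24 S phase and E2F target genes, r ran from -0.07 for Atr to 0.52 for Brca1, and 0 of 8 passed.

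Atr and Atm were the 1 pair of 28 that passed among the members, and that relation rested on 2 tumors. Their r was 0.90 and rho 0.61 (permutation, adjusted over 28 pairs p = 0.0120 and 0.386). Without sgControl tumor 1, the highest in both, and sgKdm5a tumor 2, the lowest in both, r was 0.37. Leaving out sgControl tumor 1 alone gave 0.75 (permutation, adjusted p = 0.171). Among mice 190 to 238, which include both of these tumors, r was 0.93 (permutation, adjusted p = 0.0375). Without sgControl tumor 1 no pair passed, and the median r of the 28 pairs went from 0.30 to 0.12.

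**Figure D3:**
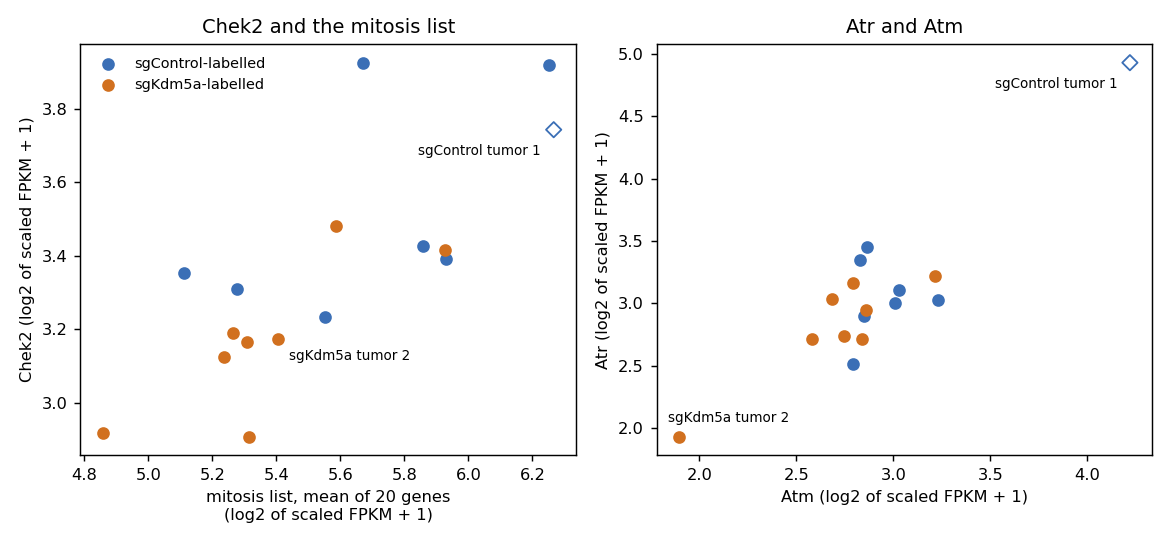
Scaled log2(FPKM + 1) of Chek2 against the mean of 20 mitosis genes (left) and of Atr against Atm (right), 1 point for each tumor, blue sgControl-labelled and orange sgKdm5a-labelled, with sgControl tumor 1 as an open diamond. On the left the tumors spread along a line (r = 0.77), and on the right sgControl tumor 1 and sgKdm5a tumor 2 lie at the ends, away from the other 14.

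**Figure D4:**
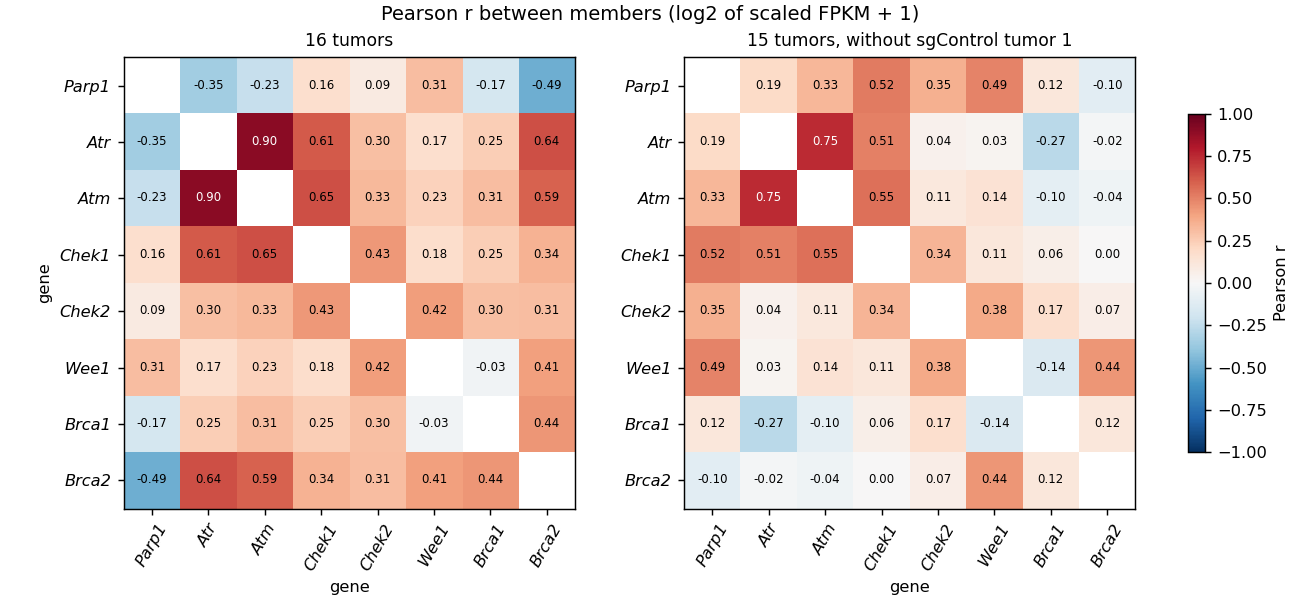
Pearson r between each pair of members on the scaled log2 values, over 16 tumors (left) and over 15 tumors without sgControl tumor 1 (right). Colour runs from blue at -1 to red at 1. Atr and Atm have the highest r in both panels, 0.90 and 0.75, and Brca2 with Atr goes from 0.64 to -0.02 without that tumor.

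Chek2 also went with its divergent neighbour. Hscb, which encodes a chaperone for iron-sulfur cluster assembly, lies next to Chek2 on the opposite strand and is transcribed away from it. Over 16 tumors r was 0.80 and rho 0.86 (permutation, adjusted over 3 neighbour relations p = 0.00084 and 0.00015). Hscb ranked 15 of 13122 tested genes by r with Chek2. Without sgControl tumor 1 r was 0.77 (permutation, adjusted p = 0.00279), in mice 190 to 238 it was 0.84, and without the 2 tumors farthest from the median Chek2 level it was 0.86. With each label's mean removed it was 0.73. The other neighbours did not pass: r was 0.39 for Atm with Npat and 0.27 for Brca1 with Nbr1 (permutation, adjusted p = 0.213 and 0.318). Their r was -0.05 and 0.54 without sgControl tumor 1 (permutation, adjusted p = 0.835 and 0.0588). These neighbours were looked at after the member values were known. Hscb itself was 5.07 to 22.1 FPKM over the 16 tumors.

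The genes whose pattern was most like each member were listed by Pearson r over 16 tumors, as a description. For Chek2 they were Cenpp (0.88) and Nuf2 (0.85), both genes of kinetochore proteins, and Ccno (0.85), and these had r of 0.83 to 0.87 without sgControl tumor 1. For Atm they were the helicase gene Wrn (0.94), Rmnd1 (0.93) and Rad50 (0.93), whose protein is a subunit of the break sensor that activates ATM. For Atr they were Thada (0.95), Sdccag8 (0.94) and Utrn (0.92). Without sgControl tumor 1 the r of these genes was 0.73 to 0.87 for Atr and 0.85 to 0.88 for Atm. For Parp1 they were G3bp1 (0.95), Tufm (0.89) and Ipo7 (0.89). For Chek1 they were BC055324 (0.88), 2700097O09Rik (0.87) and Ncapd3 (0.87), a condensin subunit gene. Wee1 was closest to Rbm27 (0.86), Zswim6 (0.85) and Dcp2 (0.84). Brca1 was closest to Rgs9 (0.88), Cc2d1a (0.81) and Tnrc6c (0.80). Brca2 was closest to Pcf11 (0.90), Casp8ap2 (0.89) and Rnpc3 (0.89), and these had r of 0.66 to 0.77 without sgControl tumor 1. Chosen without that tumor, the genes most like Atr were Rsu1, Mut and Acad11, with r of 0.51, 0.23 and 0.31 over 16 tumors. Those most like Atm were Vkorc1l1, Ift81 and Zfml, with r of 0.014, 0.92 and 0.85 over 16 tumors. None of the genes named above for Atr, Atm, Chek1 or Brca2 was among those chosen without that tumor. Cenpp and Nuf2 for Chek2 were chosen both ways, as were G3bp1 for Parp1, Rbm27 for Wee1 and Rgs9 for Brca1. Over all tested genes the 95th percentile of r with a member was 0.48 to 0.65. Genes chosen for the highest r must exceed it, so it does not test them.

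In spread, the members ranged from steady to average once sgControl tumor 1 was left out. Over all 16 tumors the SD of the scaled log2 level was 0.26 for Wee1, the lowest, and 0.62 for Atr, the highest. The median for all tested genes was then 0.45. The SD of the scaled log2 level over the 15 tumors without sgControl tumor 1 was lowest for Brca2 at 0.23 and highest for Chek1 at 0.42, against a median of 0.41 for all tested genes. In those tumors the highest FPKM was 1.93 times the lowest for Wee1, 2.05 times for Chek2 and 4.31 times for Chek1.

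No other gene of these pathways passed the test either. Of 133 genes in 8 repair and checkpoint lists, all tested, 0 passed over all genes in either direction, as deposited or scaled (limma). At an unadjusted p under 0.05, 1 was higher and 0 lower as deposited, against 488 and 92 of all 13123 tested genes (4.42% in both directions together). After scaling 2 were higher and 16 lower, against 622 and 682 of all tested genes (9.94% together). The scaled counts without sgControl tumor 1 were 2 higher and 9 lower, against 534 and 604 of all tested genes (8.67% together). The difference of 32 of the 133 lay above the all-gene median, and after scaling 72.2% had a negative difference, against 49.6% of all tested genes. These shares were 72.2% and 49.3% without sgControl tumor 1.

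By pathway, the list medians lay between 0.05 and 0.21 below that of all tested genes. Without sgControl tumor 1 the median of nucleotide excision repair lay 0.029 above, that of end joining 0.049 below and the other 6 between 0.080 and 0.19 below. Of 22 ATM and ATR sensors and mediators 8 lay above it. Their smallest p-values were for Rad17, the loader of the checkpoint clamp, at 15.3 ± 4.85 against 20.4 ± 2.25 FPKM, and Hus1, a clamp subunit, at 4.57 ± 1.70 against 6.16 ± 1.71 FPKM (sgControl-labelled against sgKdm5a-labelled, SD, n = 8 each, here and below). Of 15 checkpoint effectors 4 lay above. Cdc25c, a phosphatase that opposes WEE1, was 18.2 ± 7.72 against 13.9 ± 7.23 FPKM, and the mitotic cyclin gene Ccnb2 was 67.3 ± 29.9 against 49.7 ± 22.8 FPKM.

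Of 27 homologous recombination genes 5 lay above the median of all tested genes. Rad51d, whose product acts in recombination, had the smallest p of all listed genes. It was 0.756, 4.97 and 6.10 FPKM (lowest, median and highest) in the sgControl-labelled and 6.12, 7.86 and 9.40 FPKM in the sgKdm5a-labelled tumors, so the groups did not overlap, by a narrow margin. They did not overlap after scaling either, at 3.51 to 6.42 against 6.999 to 8.97 scaled FPKM. Such a separation upward was found in 0.0838% of all tested genes as deposited and in 0.0762% after scaling, and in 1 of the 133 listed genes. The log2 difference of Rad51d was 0.75, standard error 0.27 (limma adjusted p = 0.852), and 0.59 after scaling (limma adjusted p = 0.256), so it did not pass. Babam1, of the BRCA1-A complex, was 39.5 ± 13.8 against 53.7 ± 10.2 FPKM. In the other direction Rad54b, a recombination helicase gene named after its values were seen, lay lower in every sgKdm5a-labelled tumor after scaling, at 4.73 to 6.01 against 6.13 to 17.3 scaled FPKM (limma adjusted p = 0.319). That separation downward was found in 0.0305% of all tested genes.

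Of 12 Fanconi anemia genes, which repair crosslinks, 1 lay above the median of all tested genes. Fanca was 6.40 ± 2.18 against 4.598 ± 1.99 FPKM and Fancd2 5.94 ± 2.07 against 4.34 ± 0.9996 FPKM. Of 23 PARP and base excision repair genes 4 lay above, and Parp2, the closest relative of Parp1, was 29.1 ± 9.44 against 20.4 ± 5.89 FPKM. Its log2 difference of -0.48 was -0.74 after scaling (limma adjusted p = 0.852 and 0.344), beside 0.12 and -0.12 for Parp1. Without sgControl tumor 1 the scaled difference was -0.59 for Parp2 and -0.24 for Parp1. The remodeller gene Chd1l was 5.60 ± 2.75 against 7.05 ± 0.729 FPKM.

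Of 12 end joining genes 3 lay above, with Polm at 4.39 ± 1.38 against 5.65 ± 1.15 FPKM and the ligase gene Lig4 at 4.198 ± 1.72 against 5.49 ± 1.55 FPKM. Of 7 mismatch repair genes 0 lay above, with Msh6 at 26.0 ± 9.67 against 27.5 ± 3.65 FPKM. Nucleotide excision repair was nearest to the rest of the genes, with 7 of 15 above. There Ddb1 was 90.1 ± 39.2 against 123 ± 31.8 FPKM. The higher means of several genes rested in part on sgControl tumor 1: without it the log2 difference of Ddb1 went from 0.66 to 0.26, of Rad17 from 0.48 to 0.25 and of Hus1 from 0.43 to 0.20. Likewise Babam1 went from 0.55 to 0.28, Lig4 from 0.39 to 0.17, Polm from 0.34 to 0.18, Chd1l from 0.39 to 0.24 and Msh6 from 0.21 to -0.060. Apart from Msh6, at 0.882, the adjusted p of every gene named by pathway here, Rad54b aside, was 0.852 as deposited (limma).

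**Figure D5:**
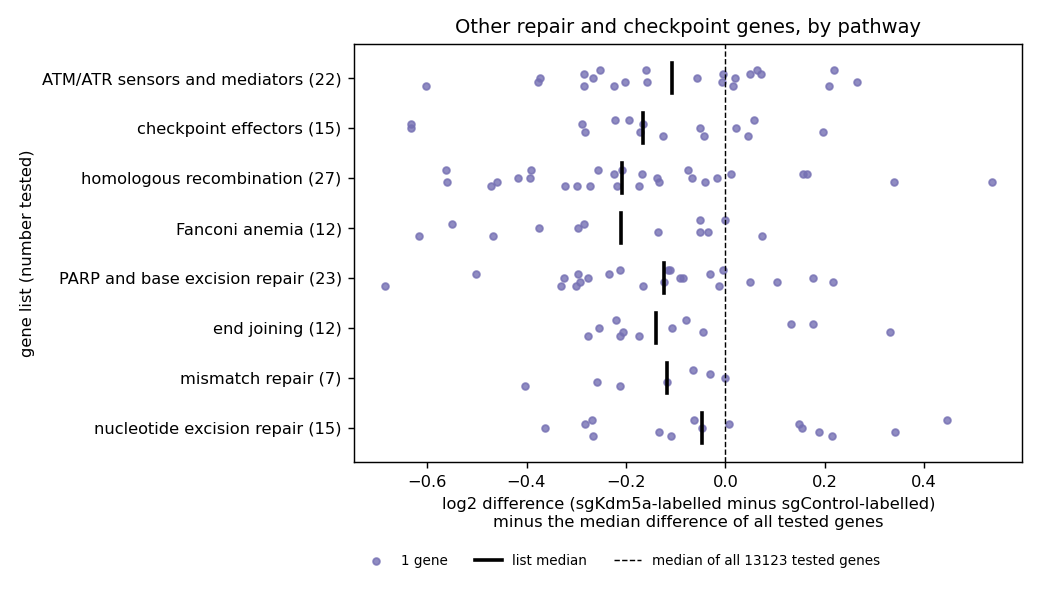
Log2 difference (sgKdm5a-labelled minus sgControl-labelled) of 133 other repair and checkpoint genes, minus the median difference of all 13123 tested genes, by list. Each point is 1 gene, thick bars are list medians and the dashed line is the median of all tested genes. Every list median lies below the dashed line, from 0.05 below for nucleotide excision repair, which is 0.029 above without sgControl tumor 1, to 0.21 below for Fanconi anemia and homologous recombination.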

How the data were processed

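Bulk total RNA of 16 lung tumors was sequenced with a stranded protocol, per the labels. The deposited values were read as FPKM: they are not whole numbers and, multiplied by transcript length, sum to about the total that FPKM imply in 15 libraries. Build mm9, STAR 2.5.1b and Cufflinks 2.2.1 are listed in the submitters' processing notes, with no role stated. For strand setting, annotation and read depth the value is not given in the sources used here, so no counting interval is given. Atr overlaps an antisense gene among others, and Parp1 a microRNA gene and a long noncoding RNA gene. Brca2 overlaps a small nuclear RNA gene, a long noncoding RNA gene and a pseudogene. The values of these members could hold reads of the overlapping genes.

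Of 24043 entries, 27 with names turned into dates were left out. Genes reaching 1 FPKM in 8 or more libraries were tested, 13123 of 24016, on log2(FPKM + 1), which understates changes of low genes. The comparison of labels used limma 3.58.1 under R 4.3.3 (trend and robust variance, Benjamini-Hochberg, threshold 0.05, 95% intervals). Scaled values set every library's median of tested genes to a common value. Correlations used 100000 permutations, two-sided, on scaled values. Both scripts were tested on simulated data. Columns of no sample numbered 0, and 0 of 120 library pairs were identical. Tumors numbered alike across labels did not deviate together, so the fit has no pairing.

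Each library was taken as 1 mouse, from the header's mouse number. Members, lists, tests and settings were chosen with earlier results of these data known. Named genes were all 8 members, up to 4 genes past the threshold or else the 2 of smallest p in each pathway list. Also named were the 3 genes most like each member, for Atr and Atm also without sgControl tumor 1, and Kdm5a, Mki67 and E2f1. A few genes that this rule names are not reported here. Hscb, Npat, Nbr1, Rad54b, Insm1, Syp and Mir6236 were named outside it, for neighbourhood, separation, tissue and library checks. The alternatives were other scalings, pseudocount 0.1, other filters, sample weights, the tumor number as a block, the mouse series as covariate or alone, and leaving out each tumor. Summed levels of the marker lists overlapped between labels. The 7 sgControl-labelled tumors other than tumor 1 began at 367 FPKM for macrophages, 8.39 for T and NK cells, 84.8 for endothelium, 102 for fibroblasts and 65.6 for alveolar type 2 cells, and tumor 1 held 48.7, 0.915, 51.5, 21.9 and 11.9 FPKM. The highest were 2316, 47.9, 279, 649 and 5925 FPKM. The sgKdm5a-labelled tumors held 392 to 1497, 9.81 to 23.8, 81.1 to 238, 60.1 to 1670 and 55.7 to 3054 FPKM.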

Additional observations from a re-analysis of the deposited data

Results flagged for a closer look

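Of 32 checks, 8 genes in 2 groups of 8 on both scales, 9 found a tumor far from the others by Dixon's gap test, which chance gives in about 1 of 20 groups. As deposited, sgControl tumor 1 was far below the other 7 for Parp1 (4.83 FPKM) and Chek2 (2.499 FPKM). With scaled libraries the same tumor was far above the other 7 for Atr (29.5 scaled FPKM), Atm (17.6 scaled FPKM) and Brca2 (10.3 scaled FPKM). Parp1 was far above the rest of its group in sgKdm5a tumor 5, at 67.1 FPKM and 70.4 scaled FPKM. Brca1 was far above the rest of its group in sgKdm5a tumor 7, at 18.8 FPKM and 17.9 scaled FPKM.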

How the results depend on the processing

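None of the 8 members and none of the 133 other repair genes was called in any setting run. Over all tested genes, where 1 was called, the count was 0 with median scaling, quantile normalization, pseudocount 0.1, no filter, a filter of 5 FPKM, or scaling without sgControl tumor 1. It was 5 with sample weights, 6 in mice 190 to 238, and 0 to 2 on leaving out each tumor. The log2 difference of Parp1 (0.12) turned to -0.12 with median scaling, -0.12 with quantile normalization, -0.33 with sample weights and -0.24 with scaling without sgControl tumor 1, and was -0.26 to 0.22 on leaving out each tumor. In the same order Chek1 (0.0034) turned to -0.24, -0.22, -0.13 and -0.15, was -0.085 with the mouse series as covariate and -0.22 in mice 190 to 238, and -0.17 to 0.15 without each tumor. Wee1 (-0.00037) turned to 0.015 with pseudocount 0.1 and 0.054 in mice 190 to 238, and was -0.24 to 0.077 without each tumor. Brca2 (0.08) turned to -0.13 with median scaling, -0.14 with quantile normalization and -0.0013 with sample weights, and was -0.0011 to 0.17 without each tumor. Msh6 (0.21) turned to -0.035, -0.041, -0.12 and -0.041 in the order of Parp1, and was -0.060 to 0.30 without each tumor. Relative to all tested genes, the list median of nucleotide excision repair was -0.12 to 0.065 and that of ATM and ATR sensors and mediators -0.18 to 0.0033 over all settings, while the other 6 lists stayed below zero in each. Of 28 member pairs, 8 passed as deposited, where the low library enters every pair, and 0 without sgControl tumor 1. Of 16 relations with the cell cycle lists, 12 passed as deposited and 0 with deviations from the mean of each label, and Chek2 with Hscb passed in all 5 settings added after the data were seen (r 0.73 to 0.89). The cause of these changes was not tested. Tumor numbers did not pair the tumors: deviations of same-numbered tumors had r of -0.30 to 0.37, 2 of 8 were highest with their own number, and the fit with the number as a block called 1 gene, no member. Read depth is unknown.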
